A study of Homo sapiens with 48 samples.

Results

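Translation efficiency (TE) after knockdown of eIF2Bδ was followed gene by gene in SW480 cells, a human colorectal cancer (CRC) line with mutant APC. TE was taken per lysate as the log2 value of ribosome-protected fragments (RPFs) minus the log2 value of total cytoplasmic RNA. All genes with a value in both tables were included, 10836 genes of the 11145 with RPFs and the 11947 with total RNA. Both lines used here carried a doxycycline (DOX)-inducible shRNA, non-targeting in shCTRL and directed against EIF2B4, which encodes eIF2Bδ, in shEIF2B4. Each line was a pool of lentivirally transduced and selected cells. Cells received either DMSO (-DOX) or DOX at 1 µg/ml (+DOX), in each case over 5 days, and the experiment was run 4 times in separate weeks, so that 16 lysates were compared. The response of a gene is its TE change from -DOX to +DOX in shEIF2B4 minus the same change in shCTRL, with the week as a block. It was tested with limma across all genes and a gene was called where its p, adjusted after Benjamini-Hochberg, was under 0.1. The 8 lysates of another line, shEIF2B1, which targets eIF2Bα, enter only where they are named.

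Translation of most mRNAs begins with the ternary complex of eIF2, GTP and initiator tRNA. After each round eIF2 is left bound to GDP, and eIF2B is the exchange factor that loads it with GTP again. Phosphorylation of the α subunit of eIF2 by stress-sensing kinases turns it into an inhibitor of eIF2B, which lowers the supply of ternary complex and slows initiation in general. Some mRNAs with upstream open reading frames (uORFs), such as those of the transcription factors ATF4 and ATF5, then gain ribosomes on their coding sequence (CDS), because scanning ribosomes pass the inhibitory uORF before they are ready to initiate again. A TE from ribosome profiling is relative: an equal loss of ribosomes from every mRNA leaves it unchanged. The values compare one gene between lysates and do not rank genes against each other, because they were not scaled for length.

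The targeted gene fell in total RNA. EIF2B4 (GRCh38, chromosome 2, 27364352 to 27370486, minus strand) had log2 total RNA values of 6.88, 7.20, 7.42 and 7.24 in uninduced shEIF2B4 in weeks 1 to 4 and of 6.64, 6.68, 6.47 and 6.66 after induction. All induced values were below all uninduced ones, and the response was -0.49 (standard error 0.14, limma adjusted p = 0.0634). Its RPF response was -0.48 (adjusted p = 0.236) and its TE response 0.01. The files give log2 values without read counts, so the depth behind them is unknown. Of 13 markers of colorectal epithelium 8 were in the total RNA table, EPCAM, CDH1, CDX2 and the keratins KRT8, KRT18 and KRT19 among them, whereas KRT20, CDH17, CDX1, VIL1 and LGR5 were not. None of the 13 markers of blood, endothelial or fibroblast cells was listed. The columns of shEIF2B4 lay lower than those of shCTRL in both tables, with mean TE from -0.98 to -0.93 against -0.90 to -0.86, which cancels in a change within a line.

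The TE of 10 genes passed the threshold, 7 higher and 3 lower after eIF2Bδ knockdown, 0.0923% of the 10836 genes tested. Higher were DYSF, ATF5, NOS3, PRPH, MLXIPL, MISP and SDHAF1 (0.0646% of genes tested were called higher), and lower were LRRC49, CCNI and STOM (0.0277%). At an unadjusted p under 0.05 there were 769 genes with higher TE (7.1%) and 1079 with lower TE (9.96%). The 10 calls depended on the week left out: without week 1 there were 1417 calls, the 10 among them, and without week 2, 3 or 4 there was none in limma (1195, 819 and 1079 genes had an unadjusted p under 0.05). None was called without the week as a block either (364 genes at an unadjusted p under 0.05). A fit on the weekly changes of each line called 683 genes, including the 10.

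DYSF encodes dysferlin, a membrane repair protein. Its log2 TE was 0.21, 0.29, 0.34 and 0.08 in uninduced shCTRL in weeks 1 to 4 and 0.44, 0.62, 0.06 and 0.34 in induced shCTRL. It was 0.27, -0.32, -0.45 and -0.29 in uninduced shEIF2B4 and 1.32, 1.43, 1.22 and 1.14 in induced shEIF2B4. The 4 induced knockdown lysates lay above the other 12 lysates, of which the highest was at 0.62. The response was 1.34 (standard error 0.18, adjusted p = 0.00325), made of 2.03 in RPFs and 0.69 in total RNA.

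ATF5, a stress-responsive transcription factor whose CDS is translated under control of uORFs, rose by much the same amount in each week. Its log2 TE was -2.65, -2.58, -2.69 and -2.44 in uninduced shCTRL and -2.20, -2.23, -2.01 and -2.24 in induced shCTRL. In shEIF2B4 it was -2.31, -2.81, -2.92 and -2.56 before induction and -0.71, -1.26, -1.05 and -1.25 after it. Again the induced knockdown lysates lay above the other 12. The weekly responses were 1.16, 1.21, 1.18 and 1.12, and the fitted response was 1.17 (standard error 0.19, adjusted p = 0.0256).

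NOS3 encodes the endothelial nitric oxide synthase and PRPH the intermediate filament peripherin. Log2 TE of NOS3 was 0.05, -0.02, 0.13 and -0.02 in uninduced and 0.46, 0.57, 0.73 and -0.05 in induced shCTRL. In uninduced shEIF2B4 it was 0.29, -0.38, -0.52 and -0.50. Induced shEIF2B4 reached 1.24, 1.24, 1.58 and 0.93, above all other lysates, and the response was 1.13 (standard error 0.21, adjusted p = 0.0435). For PRPH the induced knockdown gave 0.64, 0.38, 0.94 and 0.46 and the uninduced one -0.32, -0.58, -1.04 and -0.62, while the 8 shCTRL lysates lay between -0.26 and 0.28. Its response was 1.11 (standard error 0.20, adjusted p = 0.0435). Both mRNAs also rose in total RNA, by a response of 0.76 (adjusted p = 0.000253) for NOS3 and 1.12 (adjusted p = 3e-06) for PRPH. Their RPF values rose by more than those of total RNA. Total RNA of both was among the lowest of all genes, where the regularized values shrink differences.

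MLXIPL encodes the glucose-responsive transcription factor ChREBP. Its log2 TE was 2.19, 1.76, 1.84 and 1.79 in induced shEIF2B4 against 1.42, 0.27, 0.36 and 0.02 in the uninduced line, and in shCTRL it was 1.42, 0.45, 0.75 and 0.47 before and 1.48, 1.26, 1.14 and 0.37 after induction. Induced knockdown lysates were the highest of all 16, but the changes of both lines overlapped, since the week 2 change in shCTRL exceeded the week 1 change in shEIF2B4 (response 1.09, standard error 0.21, adjusted p = 0.0536). MISP encodes an actin-binding protein of mitotic cells and SDHAF1 an assembly factor of succinate dehydrogenase. Their responses were 0.98 (standard error 0.19, adjusted p = 0.0435) and 0.82 (standard error 0.16, adjusted p = 0.0536). Log2 TE of MISP was 1.86, 1.24, 1.12 and 0.86 in induced and 0.92, 0.26, 0.61 and 0.53 in uninduced shEIF2B4, and shCTRL lay between 0.54 and 1.38. Log2 TE of SDHAF1 was 0.16, -0.49, -0.61 and -0.83 in induced and -0.10, -0.94, -1.15 and -1.14 in uninduced shEIF2B4, whereas in shCTRL it fell from 0.43, -0.25, -0.02 and -0.36 to -0.16, -0.56, -0.48 and -0.73. In both genes the induced knockdown lysates overlapped the other 12. About as much of its response came from the fall in shCTRL (-0.43, adjusted p = 0.0976) as from the rise in the knockdown line (0.39, adjusted p = 0.0903).

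Among the genes with lower TE, CCNI encodes cyclin I. Its log2 TE was -4.25, -4.05, -4.30 and -4.03 in induced shEIF2B4 and -3.57, -3.31, -3.23 and -3.53 in the uninduced line, and shCTRL lay between -3.77 and -3.38. The induced knockdown lysates were below the other 12, with a response of -0.91 (standard error 0.17, adjusted p = 0.0435). LRRC49 encodes a leucine-rich repeat protein, and STOM the membrane protein stomatin. LRRC49 had a response of -0.96 (standard error 0.17), with -2.61, -2.60, -2.53 and -2.31 in the induced and -2.04, -1.64, -1.64 and -1.86 in the uninduced knockdown, and shCTRL between -2.55 and -1.87. STOM had a response of -0.77 (standard error 0.15), with -0.97, -0.70, -0.75 and -0.53 after and -0.29, -0.42, -0.25 and -0.08 before induction, and shCTRL between -1.02 and -0.40. The adjusted p was 0.0435 for both, and their induced knockdown lysates overlapped the control line. Total RNA of CCNI and LRRC49 rose, by 0.50 (adjusted p = 0.0434) and 0.71 (adjusted p = 0.00127), while their RPF responses were -0.41 (adjusted p = 0.127) and -0.25 (adjusted p = 0.483).

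**Figure D1:**
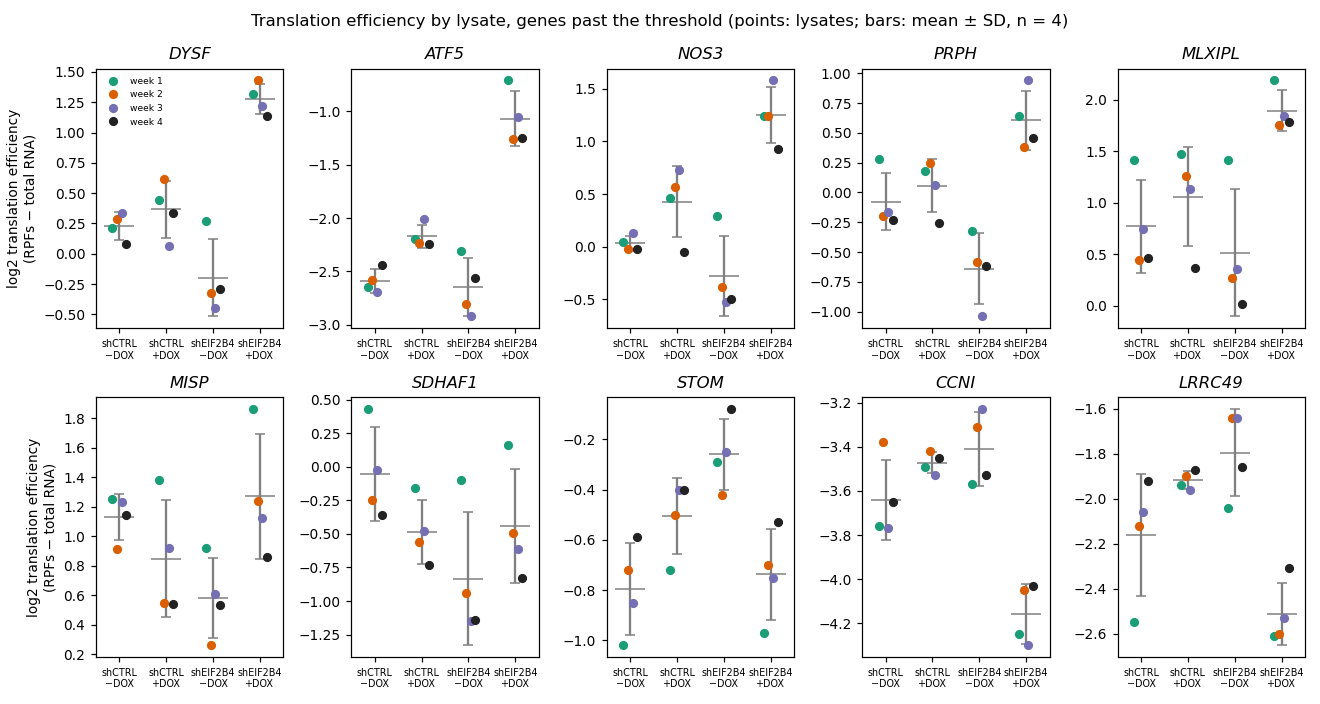
Log2 TE (RPFs minus total RNA) of the 10 genes past the threshold in each of the 16 lysates, by line and DOX, with points coloured by week and grey bars for the mean ± SD (n = 4). In DYSF, ATF5, NOS3, PRPH and MLXIPL the 4 induced shEIF2B4 lysates lie above the other 12 and in CCNI below them, while in MISP, SDHAF1, STOM and LRRC49 they overlap the others.

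For 9 of the 10 genes the 4 weekly changes in shEIF2B4 did not overlap the 4 in shCTRL, the exception being MLXIPL. For 6 of them the induced knockdown lysates also stood apart from the other 12. A response is a difference of changes and holds the uninduced values with the opposite sign, and in all 10 genes the uninduced gap between the lines had the sign opposite to the response, within its SD in ATF5 and NOS3. Against a median gap of -0.09 over all genes, uninduced shEIF2B4 minus uninduced shCTRL was -0.78 ± 0.25 (SD, n = 4) for SDHAF1, -0.55 ± 0.15 for MISP and 0.54 ± 0.18 for STOM. After induction these gaps were 0.04 ± 0.21, 0.42 ± 0.21 and -0.23 ± 0.09. In ATF5 the gap was -0.06 ± 0.27 before and 1.10 ± 0.26 after induction, and in DYSF it went from -0.43 ± 0.37 to 0.91 ± 0.17. After induction the gap had the sign of the response in 10 of 10 genes. The same opposite sign of the uninduced gap was seen in 82.1% of all 10836 genes. The 10 genes were chosen by a test on these same values. Their lack of overlap and their signs after induction follow in part from that choice, and were not counted over all genes.

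**Figure D2:**
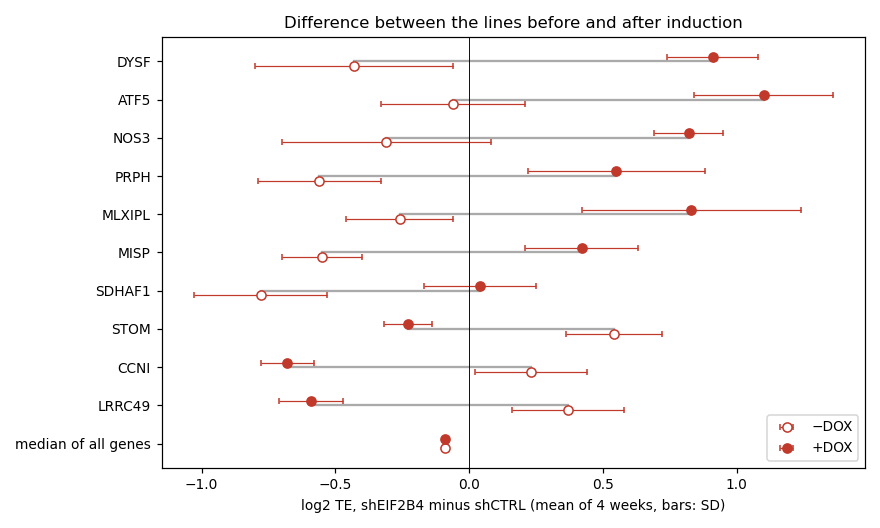
Difference in log2 TE between the lines (shEIF2B4 minus shCTRL) for the 10 genes and for the median of all genes, as the mean of 4 weeks with SD bars, open for -DOX and filled for +DOX. For each of the 10 genes the open point lies on the other side of zero from the filled one, while the median of all genes stays at -0.09, and SDHAF1 ends near zero (0.04) whereas ATF5 starts near it (-0.06).

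Most of the called genes had few ribosomes to measure, and several also had little total RNA. Mean total RNA of NOS3, DYSF, PRPH, MLXIPL and MISP lay at percentiles 1.03, 1.08, 2.47, 3.69 and 7.49 of all genes. That of the other called genes ran from 14.1 (SDHAF1) to 98.1 (CCNI). Regularized values shrink differences of low genes, and the part of this in the TE responses was not tested. Mean log2 RPF values of 7 of the 10 lay in the lowest 25% of all genes, below 5.73, and of 9 below the 30th percentile, whereas CCNI was at the 76.3rd percentile with 8.54. With this lowest 25% left out none of the remaining 8127 genes passed the threshold (1458 at an unadjusted p under 0.05, lowest adjusted p 0.11). A group of 10 genes shared the next adjusted p, 0.1002. Higher were PLEC (1.01), TNFRSF9 (0.96), IRF7 (0.93), ANO9 (0.89), NCDN (0.79) and TBC1D10C (0.70). Lower were ZFYVE9 (-0.88), MAN1A2 (-0.84), TOGARAM1 (-0.82) and ACADM (-0.76), the mitochondrial medium-chain acyl-CoA dehydrogenase. All 10 moved the same way in 4 of 4 weeks, against 29.8% of all genes. So did 629 of the 769 genes with higher and 899 of the 1079 with lower TE at an unadjusted p under 0.05. These 10 genes were taken by their p from the same values, so their agreement over weeks follows in part from that choice. PLEC, the cytoskeletal linker plectin, had a high mean RPF value of 9.69 and weekly responses of 0.31, 1.04, 1.39 and 1.29. Those of ACADM were -0.87, -0.73, -0.71 and -0.72.

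Of the 10 lowest responses with one direction in 4 of 4 weeks only LRRC49 was called. ANKHD1-EIF4EBP3 (-1.09, standard error 0.25, adjusted p = 0.102) and HSPE1-MOB4 (-1.05, standard error 0.27, adjusted p = 0.132) are read-through genes that share sequence with their neighbours, so their values are uncertain. The others were UFM1, a ubiquitin-like modifier, with -0.98 (adjusted p = 0.121), CASD1 with -0.96 (adjusted p = 0.144), POLR2K with -0.96 (adjusted p = 0.159), ZMYM5 with -0.94 (adjusted p = 0.132), IFNAR1 with -0.93 (adjusted p = 0.178), PFDN1 with -0.92 (adjusted p = 0.144) and BCAP29 with -0.92 (adjusted p = 0.159). Among the 10 highest, SERPINA3 had 0.95 and ABCG1 0.96, both with an adjusted p of 0.144.

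In most genes with a TE response at an unadjusted p under 0.05, RPF values moved further than those of total RNA. Among the 769 genes with higher TE at an unadjusted p under 0.05, RPFs had a median response of 0.37 and total RNA of -0.09, and in 600 of them (78%) RPFs moved further from zero than total RNA. Among the 1079 with lower TE the medians were -0.36 and 0.14, and in 816 (75.6%) RPFs moved further, against 62.4% of all genes. Since TE is computed from both values, their signs are tied to it. RPF responses also spread more across genes in each week. Their SDs were 0.36, 0.34, 0.46 and 0.39 in weeks 1 to 4, against 0.25, 0.26, 0.36 and 0.25 in total RNA. A choice by TE thus favours genes with larger RPF responses, so the shares above follow in part from it. Of the 10 called genes, 7 were also called in RPFs and 6 in total RNA. Over all genes 210 were called higher in RPFs (1.88% of 11145) and 97 lower (0.87%), and 452 were called higher in total RNA (3.78% of 11947) and 193 lower (1.62%). Where total RNA was called higher, TE was mostly lower: of 405 such genes with a TE, 282 had a response below zero, with a median of -0.21. Genes called lower in total RNA had a median TE response of 0.16, and 136 of 189 lay above zero. These sets were chosen by total RNA, which TE subtracts, so that a TE of the opposite sign follows in part from the choice.

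**Figure D3:**
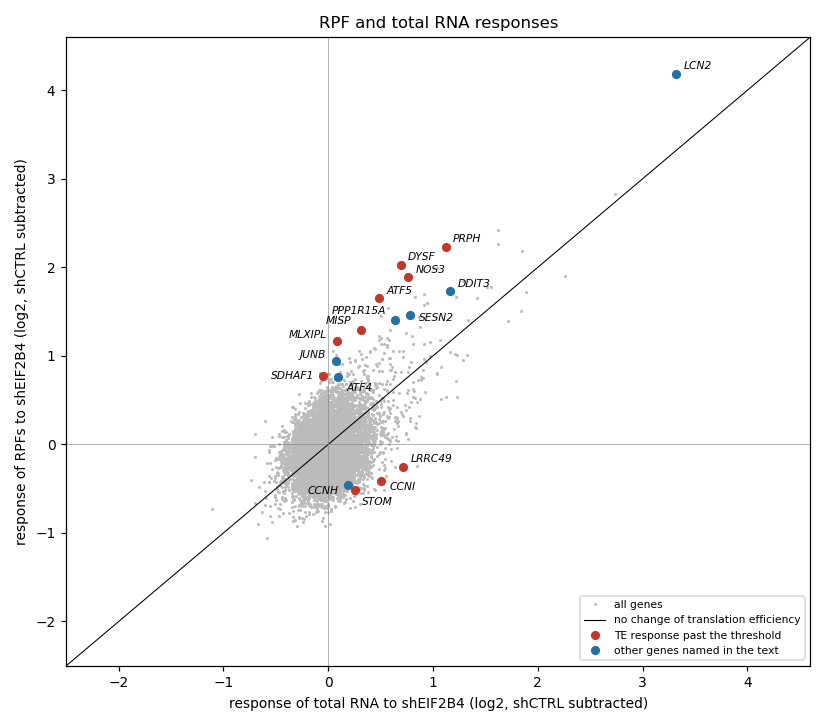
Response to shEIF2B4 of total RNA (x axis, log2) and of RPFs (y axis, log2), each corrected for shCTRL, with one grey point per gene, the 10 called genes in red and others named in the text in blue. Vertical distance from the diagonal is the TE response: PRPH (1.12 and 2.23) and DYSF (0.69 and 2.03) lie above it with both values raised, MLXIPL (0.08 and 1.17) rises in RPFs alone, and LRRC49 (0.71 and -0.25) lies below it.

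The stress mRNAs known for regulatory uORFs had a median TE response of 0.26 over 14 measured genes, against -0.01 over all genes. Of the 14, 10 were above zero (71.4%, against 48.8% of all genes). ATF5 was the only one called. At an unadjusted p under 0.05 there were 5 higher (35.7%, against 7.1% of all genes) and 1 lower (7.14%, against 9.96%). Medians were 0.27, 0.25, 0.27 and 0.30 in weeks 1 to 4. The master regulator ATF4 had log2 TE of -2.38, -2.20, -2.08 and -2.27 in induced shEIF2B4, against -2.92, -3.15, -3.44 and -3.29 before induction. In shCTRL it was -3.01, -2.88, -2.95 and -3.23 before and -2.85, -2.87, -2.41 and -2.74 after induction. The induced knockdown lysates were the highest of all 16. With shCTRL subtracted the response was 0.67 (standard error 0.20, adjusted p = 0.159). Over 14 alternatives its adjusted p ran from 0.000313, for the change of 0.97 in the knockdown line alone, to 0.879, and it was called in 3 of them. Almost all of it lay in RPFs, at 0.76 (adjusted p = 0.069), with 0.09 in total RNA (adjusted p = 0.678).

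PPP1R15A encodes GADD34, which directs dephosphorylation of eIF2α. Its TE response was 0.77 (standard error 0.19, adjusted p = 0.121), with weekly values of 1.10, 0.43, 1.12 and 0.44. The response of DDIT3, which encodes the pro-apoptotic factor CHOP, was 0.57 (standard error 0.21, adjusted p = 0.216), with weekly values of 0.29, 0.65, 1.06 and 0.28. Unlike ATF4, both rose in total RNA, by 0.64 (adjusted p = 0.0296) and 1.16 (adjusted p = 9e-07). CEBPB, a transcription factor with uORF-set isoforms, had 0.37 (adjusted p = 0.259) and was named after its value was seen. PTP4A1 went the other way, with a TE response of -0.64 (adjusted p = 0.223), as its total RNA rose by 0.67 (adjusted p = 0.0484) while its RPF response was 0.04. ATF3, a further stress transcription factor, had -0.10 (adjusted p = 0.827), with weekly values from -0.80 to 0.43.

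Many targets of ATF4 and CHOP rose in RNA and RPFs. Of 33 measured, 16 were called higher in total RNA and 14 in RPFs, against 3.78% and 1.88% of all genes. None was called lower in either, and the medians were 0.43 and 0.56. The median TE response was only 0.07, and none was called in TE. At an unadjusted p under 0.05, 11 were higher in TE (33.3%, against 7.1% of all genes) and 4 lower (12.1%, against 9.96%). The highest TE responses were those of CHAC1 (0.70), SESN2 (0.69) and GDF15 (0.67), with adjusted p of 0.159, 0.144 and 0.159. SESN2, an inhibitor of mTORC1 signalling, was even, at 0.64, 0.66, 0.83 and 0.61 in weeks 1 to 4. The lowest was ERO1A, an oxidase of the endoplasmic reticulum, with -0.61 (adjusted p = 0.223). Cytosolic aminoacyl-tRNA synthetases, which ATF4 also controls, had a median TE response of 0.02 (20 measured, 1 lower at an unadjusted p under 0.05). IARS1 showed how the measures part: its total RNA rose by 0.65 (adjusted p = 0.00143), its RPF response was 0.30 (adjusted p = 0.381) and its TE response -0.35 (adjusted p = 0.25).

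Over eIF2 subunits, kinases, phosphatase partners and related initiation proteins the median TE response was -0.31, and none was called. Of 21 genes 5 were above zero (23.8%, against 48.8% of all genes). At an unadjusted p under 0.05, 5 were lower (23.8%, against 9.96% of all genes) and 1 higher (4.76%, against 7.1%). The 1 higher gene was PPP1R15A, at 0.77, which also counts among the stress mRNAs with uORFs. The median GC3 of this list was low, at 39.6%, and with the GC trend described further on removed its median was -0.01. DENR and MCTS1, partners in ribosome recycling and reinitiation, had -0.80 (adjusted p = 0.211) and -0.73 (adjusted p = 0.157). IMPACT, an inhibitor of the kinase GCN2, had -0.62 (adjusted p = 0.188). The eIF2 kinase PKR, encoded by EIF2AK2 and named after its value was seen, had -0.61 (standard error 0.21, adjusted p = 0.193) with weekly values of -0.65, -0.56, -0.64 and -0.59. Subunits of eIF2B itself had responses between -0.15 (EIF2B3) and 0.16 (EIF2B2), all with adjusted p over 0.5.

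Genes of the NF-κB and immediate early response had a median of 0.36 over 26 measured genes, of which 23 were above zero (88.5%, against 48.8% of all genes). None was called, while 15 (57.7%, against 7.1% of all genes) were higher and none lower at an unadjusted p under 0.05. Median GC3 of this list was 76.4%, and with the GC trend removed its median was 0.12. Without this removal the list median was even over weeks, at 0.30, 0.28, 0.38 and 0.34. The AP-1 subunit JUNB had 0.87 (standard error 0.22, adjusted p = 0.131), with a total RNA response of 0.07 (adjusted p = 0.791) and a rise in RPFs of 0.94 (adjusted p = 0.0423). LCN2, the secreted iron-siderophore binder lipocalin 2, rose by 3.32 in total RNA (adjusted p = 8.8e-09) and 4.19 in RPFs (adjusted p = 2.5e-07), and its TE response was 0.87 (standard error 0.21, adjusted p = 0.121). EGR1 had 0.63 (adjusted p = 0.21), IER2 0.54 (adjusted p = 0.188) and the phosphatase gene DUSP1, the lowest, -0.05 (adjusted p = 0.911).

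Clustered histone genes, which encode the replication-dependent histones, had a median TE response of 0.32. Of 53 measured, 50 were above zero (94.3%, against 48.8% of all genes). None was called, and 10 (18.9%, against 7.1% of all genes) were higher at an unadjusted p under 0.05. Median GC3 of this list was 77.2%, and with the GC trend removed its median was 0.10. Of all genes with a GC3 from 75.6% to 81%, 86.3% were above zero. Here total RNA was lower (median -0.29) and RPFs were level (median 0.01). These mRNAs lack poly(A) tails and are near copies of each other, so reads can be shared among them. Medians by week were 0.15, 0.29, 0.66 and 0.19. H2BC15 had 0.62, H2AC4 0.60, H2BC12 0.59 and H2AC11 0.54, with adjusted p from 0.216 to 0.259, and the lowest was H2AC14 with -0.10. Kinesins and kinetochore genes had a median of -0.20 over 59 measured genes, with none called. Of these, 19 were above zero (32.2%, against 48.8% of all genes), and the list medians were 0.11, -0.20, -0.48 and -0.13 in weeks 1 to 4. NUF2, KIF20B, TTK and MAD2L1 had -0.61, -0.61, -0.61 and -0.60, with adjusted p from 0.216 to 0.298. In week 1 they had -0.04, -0.23, 0.20 and 0.12, and in week 3 -1.02, -1.30, -1.91 and -1.56. At the other end KIF22 had 0.40. Of 23 cyclins 8 were above zero (34.8%, against 48.8% of all genes), with CCNI called. CCNH, a subunit of the kinase that activates other cyclin-dependent kinases, had -0.65 (adjusted p = 0.132), CCNC -0.61 (adjusted p = 0.266) and CCNT2 -0.46 (adjusted p = 0.229). In the other direction CCNQ had 0.38 (adjusted p = 0.291) and CCNF 0.36 (adjusted p = 0.288).

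Ribosomal protein genes had lower TE medians on induction in both lines. Their mRNAs carry terminal oligopyrimidine tracts and are read by ribosomes according to mTORC1 activity. On induction the median TE change of the 49 large subunit genes was -0.42 in shCTRL and -0.29 in shEIF2B4, and of the 34 small subunit genes -0.40 and -0.34. In shCTRL 5 and 6 of them were called lower, of 42 genes called in all (0.388% of genes tested), and in shEIF2B4 11 and 9, of 673 genes (6.21%). With shCTRL subtracted the medians became 0.12 and 0.07, and none was called. The remaining lists, among them the proteasome (0.05), mitochondrial ribosomal proteins (0.01), oxidative phosphorylation (-0.03), zinc finger genes (-0.05), hnRNP genes (-0.14) and SR splicing factors (-0.00), held no called gene, with medians from -0.14 to 0.18.

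**Figure D4:**
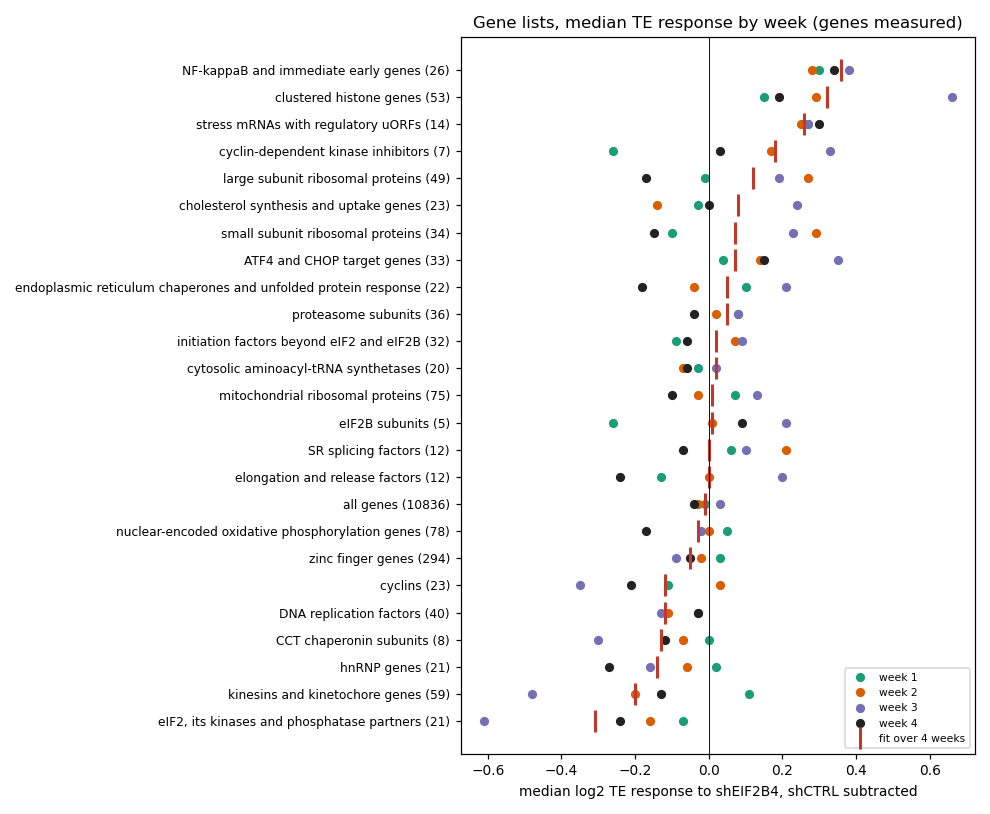
Median log2 TE response to shEIF2B4 of each gene list (number of genes measured in brackets) in weeks 1 to 4 (points) and in the fit over 4 weeks (red bars). NF-κB and immediate early genes (0.28 to 0.38) and stress mRNAs with regulatory uORFs (0.25 to 0.30) keep to a narrow range over weeks, whereas clustered histones (0.15 to 0.66) and the list of eIF2, its kinases and partners (-0.07 to -0.61) spread widely with week 3 at the end.

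The 4 weeks differed in size and pattern. Across the 10836 genes the SD of the response was 0.35, 0.36, 0.58 and 0.37 in weeks 1 to 4, and 90, 82, 766 and 123 genes lay past 1 in either direction. Week 3 is the one whose libraries were sequenced in 2 runs, and the part of this in its wider spread was not tested. Week 1 had a Pearson correlation across genes of 0.14, 0.16 and 0.13 with weeks 2, 3 and 4, and the later weeks had 0.44, 0.35 and 0.47 among themselves. Genes are not independent replicates, and these values are given as a description. In total RNA week 1 stood no further apart, at 0.36 to 0.51. The direction was the same in 4 of 4 weeks for 3225 genes, 1438 of them higher and 1787 lower (29.8% of genes).

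Across genes the response went with the composition of the CDS, which the threshold did not use. A matched CDS was found for 10521 genes in the GENCODE v29 annotation of GRCh38. Across these genes the response had a Spearman correlation of 0.73 and a Pearson correlation of 0.71 with GC3, the share of codons that end in G or C, and of 0.76 and 0.74 with the GC share of the whole CDS. The TE response to shEIF2B1 had Spearman correlations of 0.63 with GC3 and 0.68 with the GC share of the CDS. All 7 genes called higher in shEIF2B4 lay above the median GC3 of 59.3% and all 3 called lower below it. This did not set the called genes apart. Genes were also split into 10 groups by GC3, of which groups 6 to 10 started at 59.3%. At an unadjusted p under 0.05, groups 6 to 10 held 56, 103, 142, 168 and 237 genes with higher TE. They held 18, 8, 5, 2 and 1 with lower TE. Groups 1 to 5 held 371, 282, 189, 118 and 60 genes with lower and 2, 0, 5, 5 and 31 with higher TE. Not every gene followed the relation to GC3: TNFRSF9 (0.96) and SLC26A4 (0.80), neither of them called, had a GC3 of 48.6% and 46.3%. Short stretches from the middle of the CDS are shown for genes from both ends of this range. Below are 20 codons from the centre of the CDS, 5′ to 3′, for the gene called higher with the most G or C at this position (PRPH, GC3 88.9%, codons 226 to 245, chromosome 12, 49293252 to 49298686, plus strand), for NOS3 (GC3 81.4%, codons 592 to 611, chromosome 7, 150990995 to 151014588, plus strand), for CCNI (GC3 44.3%, codons 179 to 198, chromosome 4, 77047158 to 77076005, minus strand) and for LRRC49 (GC3 38.4%, codons 336 to 355, chromosome 15, 70853239 to 71053657, plus strand). Positions are those of the genes, and capitals mark a G or C in the last position of a codon.
PRPH: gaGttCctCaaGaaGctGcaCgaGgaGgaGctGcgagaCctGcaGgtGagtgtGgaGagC
NOS3: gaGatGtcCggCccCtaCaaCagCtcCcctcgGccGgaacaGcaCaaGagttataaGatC
CCNI: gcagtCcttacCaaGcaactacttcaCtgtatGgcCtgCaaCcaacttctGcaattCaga
LRRC49: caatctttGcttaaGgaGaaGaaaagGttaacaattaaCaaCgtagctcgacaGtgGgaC

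PRPH had a G or C at the last position in 18 of the 20 codons and NOS3 in 16, against 10 each in CCNI and LRRC49. Over so short a stretch the genes called higher reached from 12 in MLXIPL and 13 in ATF5 to 19 in SDHAF1, and STOM had 8. Split into 10 groups by GC3, genes ran in order from a median response of -0.36 in the lowest group (median GC3 33.2%) over -0.04 in group 5 (56.2%) to 0.26 in the highest (84.8%). Above zero were 4.56% of genes in the lowest group and 90% in the highest. At an unadjusted p under 0.05, the lowest group held 371 genes with lower and 2 with higher TE and the highest 1 and 237. In RPFs the correlation with GC3 was 0.58 and in total RNA -0.29 (Spearman). The share of G and A in the CDS had -0.31, CDS length had 0.01 and 5′ leader length -0.06.

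The relation to GC3 was not even over weeks, with Spearman correlations of 0.14, 0.42, 0.80 and 0.50 in weeks 1 to 4. The lysates it rests on can be seen from the gap in median TE between the highest quintile of genes by GC3 (2104 genes, from 75.6%) and the lowest (2105 genes, up to 41.2%). This gap was 3.13, 2.34, 2.93 and 2.30 in uninduced and 2.99, 2.31, 2.59 and 2.04 in induced shCTRL. In shEIF2B4 it was 3.20, 1.77, 1.68 and 1.65 before and 3.22, 2.16, 2.59 and 1.85 after induction. The 3 uninduced knockdown lysates of weeks 2 to 4 were thus the lowest of all 16, whereas the induced ones of weeks 2 and 3 lay within the range of shCTRL and that of week 4, at 1.85, below it. Induction changed the gap by 0.02, 0.39, 0.91 and 0.20 in shEIF2B4 and by -0.14, -0.03, -0.34 and -0.26 in shCTRL, so that the subtraction of shCTRL added to the response in 4 of 4 weeks. In RPFs the gap changed by -0.00, 0.30, 0.54 and 0.18 in shEIF2B4, and in total RNA by 0.01, -0.01, -0.33 and -0.01.

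With the trend of TE on CDS GC and GC3 removed from each lysate, an alternative chosen after the relation was seen, 5 of 10521 genes were called. These were DYSF, ATF5, NOS3 and STOM, which were also called without this step, and SLC26A4, the anion exchanger pendrin, whose response was 0.80 (adjusted p = 0.102) without it. List medians moved by unequal amounts. For the 12 stress mRNAs with uORFs that had a matched CDS, which leaves out ATF4 and PTP4A1, the median went from 0.26 to 0.14. The median became 0.12 for NF-κB and immediate early genes and 0.10 for clustered histones, while for eIF2 and its partners it went from -0.31 to -0.01 and for the 57 matched kinesins and kinetochore genes from -0.18 to 0.01. Median GC3 was 47.2% in kinesins and kinetochore genes and 77.2% in clustered histones, against 59.3% over all genes.

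The TE responses to both knockdowns rest on the same 8 shCTRL lysates, so their values are given side by side. In shEIF2B1 769 genes were called (7.1% of genes tested), 322 higher and 447 lower, against 10 in shEIF2B4. Of these 10, 7 were called in both, all but NOS3, MISP and STOM. The shared shCTRL lysates tie the responses, so this overlap follows in part from them. The difference between the 2 responses was called for none of 10836 genes (0% of genes tested, limma, lowest adjusted p 0.149, 665 genes at an unadjusted p under 0.05), so none of these genes was shown to respond differently. DYSF had 0.67 in shEIF2B1 and 1.34 in shEIF2B4 (difference 0.67, standard error 0.21, adjusted p = 0.789), ATF5 had 0.62 and 1.17 (difference 0.54, standard error 0.20, adjusted p = 0.789) and STOM had -0.12 and -0.77 (difference -0.65, standard error 0.15, adjusted p = 0.788). SDHAF1 had 0.72 and 0.82 and ATF4 0.83 and 0.67, with differences of 0.10 (standard error 0.18) and -0.16 (standard error 0.20). For clustered histones the medians were 0.22 and 0.32, for stress mRNAs with uORFs 0.31 and 0.26, and for hnRNP genes -0.41 and -0.14.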

How the data were processed

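RPF and total cytoplasmic RNA libraries of 16 lysates (shCTRL and shEIF2B4, -DOX and +DOX, 4 replicates) were analysed, and the 8 lysates of shEIF2B1 for a comparison. Groups were taken from the sample labels. The authors deduplicated total RNA reads, aligned them to GENCODE v38 protein-coding transcripts, took quantities from RSEM and used, for each gene, its most expressed transcript. From the RPF reads they removed those of rRNA, tRNA and mitochondrial RNA, chose fragment lengths, and counted within the CDS of those transcripts. The deposited values are regularized log2 values, made by the authors with DESeq2 separately for each table, and shrink differences of low genes. Per the series' design text, replicate 3 joins reads of 2 sequencing runs. Read depth is unknown.

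Log2 TE was taken per lysate and fitted in R 4.3.3 with limma 3.58.1 (terms for replicate, line, DOX and line by DOX, eBayes with a mean-variance trend, two-sided). Replicates mark weeks, per the methods and labels. After removal of group means, 21 of 24 pairs of lysates from one week correlated over 0.1 across genes in TE (mean 0.504, against -0.156 between weeks). In simulated data for this comparison 93 of 100 genes changed by 1 were recovered and 23 of 100 changed by 0.5, with 12 false calls among 10836 genes. With no gene changed there was 1 call. The noise was drawn independently for each gene and lysate, without links between genes or the unequal weeks seen in the data. These rates may therefore not hold for the data. The p-values rest on the residual spread of the 16 lysates after the terms above, not on the spread of the 4 weekly responses. The pairing of -DOX and +DOX lysates of a line within a week is not used. It is used in the fit on weekly changes.

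CDS were matched by transcript identifier without version to GENCODE v29 (10521 genes, 97.1%, of which 31% had the same version). The members, the 24 gene lists and the tests were chosen with earlier results of these data known. Named genes are all calls, eIF2B subunits and stress genes, the ends of the lists and up to 4 members of each, and the 10 highest and lowest responses with one direction in 4 of 4 replicates. The alternatives were no replicate block, weekly changes within each line, no trend, low genes left out, median centring, all 24 lysates, no shCTRL correction, a threshold of 0.05 and each replicate left out.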

Additional observations from a re-analysis of the deposited data

Results flagged for a closer look

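Among 100 groups of 4 values examined (TE in each group and weekly responses of the called genes, the eIF2B subunits and stress genes), 2 held a value far from the other 3 for the range of the group. Chance alone gives about 1 in 20. In ATF5, induced shCTRL of week 3 was at -2.01, above the other weeks, and in PRPH, uninduced shCTRL of week 1 was at 0.28. Both genes keep induced shEIF2B4 lysates above these values.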

How the results depend on the processing

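The number of genes called in the TE response depended on the processing. It was 38 with all 24 lysates in one fit (25 higher), 26 with libraries centred on their medians (20 higher), 27 without the mean-variance trend, 683 with the replicate block within each line (303 higher, 380 lower), 673 without shCTRL correction, 8 at an adjusted p under 0.05, 5 with the CDS GC trend removed, 0 without the replicate block and 0 with the lowest 25% of genes left out. Leaving out 1 replicate gave 0 to 1417. Chosen after seeing the data, replicates 1 and 3 alone gave 0 and replicates 2 and 4 alone 26. Without the replicate block there were 36 calls in RPFs, 349 in total RNA, 0 in the shCTRL change and 8 in the shEIF2B4 change, and leaving out 1 replicate gave 43 to 1615, 217 to 496, 0 to 621 and 100 to 2130. The difference between the knockdowns stayed at 0 in each. The cause was not tested. The Spearman correlation with GC3 stayed between 0.51 (without replicate 3) and 0.76.

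Of 143 values of the 10 called genes under alternatives, 77 stayed past the threshold and 66 did not, and no direction turned. Their largest adjusted p was 0.879. Other genes changed sign in 20 cases. ATF3 was 0.09 without shCTRL correction, 0.31 in replicates 1 and 3 alone and 0.14 without replicate 4 (-0.27 to 0.14 with 1 replicate left out). DUSP1 was 0.36 in replicates 2 and 4 alone and 0.18 without replicate 1 (-0.33 to 0.18), and H2AC14 was 0.14 and 0.06 there (-0.28 to 0.06) and 0.02 without shCTRL correction. EIF2B1 was -0.01 in replicates 2 and 4 alone and -0.08 without replicate 3 (-0.08 to 0.09). EIF2B3 was 0.02 with the GC trend removed and 0.01 without shCTRL correction. EIF2B4 was -0.05 with the GC trend removed, -0.07 without shCTRL correction, -0.05 in replicates 1 and 3 alone, and -0.06 and -0.12 without replicates 3 and 4 (-0.12 to 0.12). EIF2B5 was -0.17 in replicates 1 and 3 alone, and -0.01 and -0.03 without replicates 2 and 4 (-0.03 to 0.17). Of 336 list medians under alternatives 307 moved by less than their spread over weeks. Depth is unknown, and regularized values shrink low genes, which made up most calls.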
